A study of Rattus norvegicus with 5 samples.

Results

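Lung RNA from rats that received the urban dust EHC-93 by intratracheal instillation, taken 15, 18 and 21 h later, was compared with lung RNA from 2 kinds of control rats. EHC-93 is a collected urban air particle preparation, and instillation places a suspension of it directly in the airways. The comparison used 3 of the 5 arrays of the study: the intermediate dust array, the saline sham array (saline instillation, pooled over 2, 15 and 24 h) and the untreated array (no instillation, a pool of 3 rats). The other exposed arrays held dust pools of 2, 4 and 6 h (early) and of 24, 32 and 40 h (late), and their values are given beside those of the intermediate array. Every group was 1 hybridisation of pooled total lung RNA on a one-colour oligonucleotide array, so there was no replicate error, and every difference below is a difference between single arrays, with no test. Strain, sex and age of the rats, the dose and the number of rats behind each instilled pool were not given in the sources used here. The sham pool shares only the 15 h time with the intermediate pool, so effects of the dust and of time since instillation cannot be fully told apart. In bulk tissue, fewer cells of a type and less RNA per cell cannot be told apart either.

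Of the 8799 probe sets, 59 control probe sets were left out, and the other 8740 named 4736 genes. Values are intensities after scaling the arrays to the same median, and a value under the floor of 173 is given as "under the floor". A gene was counted as measured where it exceeded the floor on at least 1 of the 3 arrays compared, which held for 3561 genes. A gene was called higher where it was at least 2-fold above both controls, and lower where it was at least 2-fold below both. A fold against a value under the floor is a lower bound. Where values are set against a pair of controls, the saline value comes before the untreated value, and 3 exposed values stand in the order early, intermediate, late. Differences pooled over both controls are the mean of both log2 differences.

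Inhaled or instilled particles are taken up by alveolar macrophages and touch the epithelium, and both release chemokines that recruit neutrophils and monocytes. Acute phase proteins are plasma and secreted proteins whose synthesis rises in inflammation, in the liver and, for some, in the lung itself. Cells that raise secretion load their endoplasmic reticulum (ER) with unfolded protein, which turns on ER chaperones through the unfolded protein response, and heat shock factors do the same for chaperones of the cytosol.

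Markers of lung cells were abundant on all 3 arrays, as the tissue label implies. Surfactant protein C (Sftpc), a product of alveolar type 2 cells, read 71970 on the intermediate array, 55179 after saline and 53586 in untreated lung. Club cell secretoglobin (Scgb1a1) read 23021, 23792 and 25506, and the endothelial enzyme Ace read 4978, 5207 and 4938. The RNA of the intermediate array gave the lowest 5′ to 3′ signal ratios of the 5 arrays, 9.07% for beta-actin and 23.6% for GAPDH, against 14.7% and 25.4% on the sham and 24.4% and 39.1% on the untreated array. The early array gave 43.1% and 67.2%, and the late array 19.6% and 38.1%. The part of these gaps in the differences below was not tested.

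On the intermediate array 32 genes, 0.899% of those measured, were at least 2-fold above both controls, and 8, 0.225%, were at least 2-fold below both. The leading genes encoded an acute phase protein (Orm1), chemokines and a cytokine (Ccl2, Ccl3, Il1b), the macrophage protease Mmp12, inducible nitric oxide synthase (Nos2), complement proteins (C4bpa, C3) and the ER chaperone Hspa5. Counted by probe set, 51 of 5959 (0.856%) were higher and 21 (0.352%) lower, of which 8 and 5 had no single gene name. The same rule applied to the sham array against the other 2 arrays of the comparison called 29 genes higher and 21 lower, and applied to the untreated array it called 10 and 13. The number of higher genes on the dust array was therefore close to that on the sham array. The balance of the calls moved with the scaling. The deposited values without rescaling gave 21 higher and 14 lower genes, and quantile normalization gave 23 and 11, so that higher genes made up 80% of calls with median scaling, 60% as deposited and 67.6% after quantile normalization. The 23 genes called higher after quantile normalization were all among the 32, and its 11 lower genes included all 8.

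**Figure D1:**
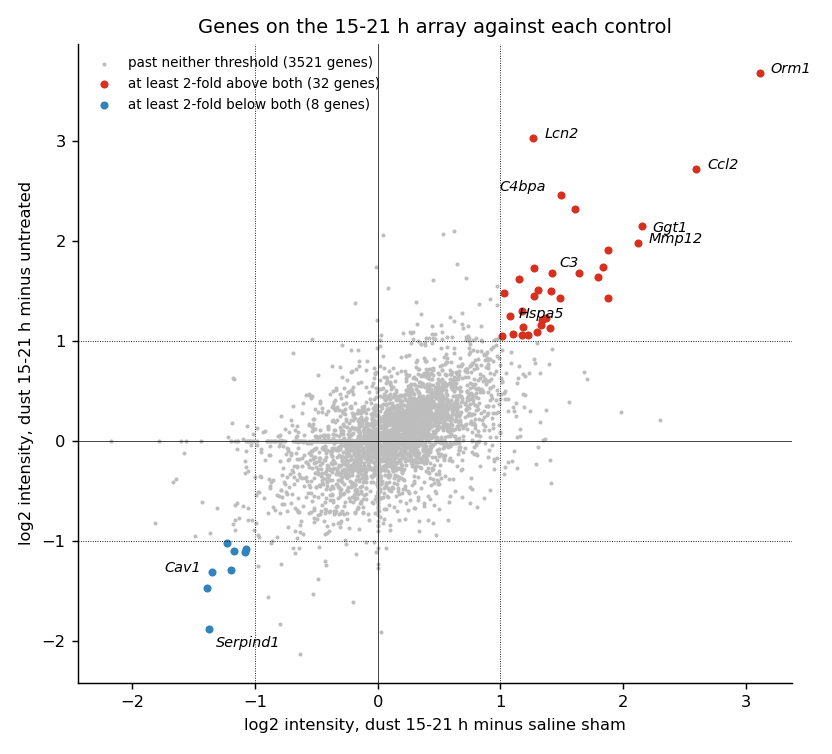
Each point is 1 of 3561 genes, placed by the log2 intensity of the 15 to 21 h dust array minus the saline sham array (x axis) and minus the untreated array (y axis), with dotted lines at 2-fold. The 32 genes above both controls lie in the upper right corner with Orm1 and Ccl2 outermost, and the 8 genes below both lie in the lower left.

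Of the 32 higher genes, 22 read highest on the intermediate array among the 3 exposed arrays, 9 on the early and 1 on the late array, a split that the choice of genes on the intermediate array favours. Those highest on the early array were Ccl2, Ccl3, Il1b, Nos2, Sod2, Hsph1, P2ry2, S100a9 and Uck2. Those highest on the intermediate array included the acute phase, complement and ER genes described below. Mmp12 read highest on the late array.

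**Figure D2:**
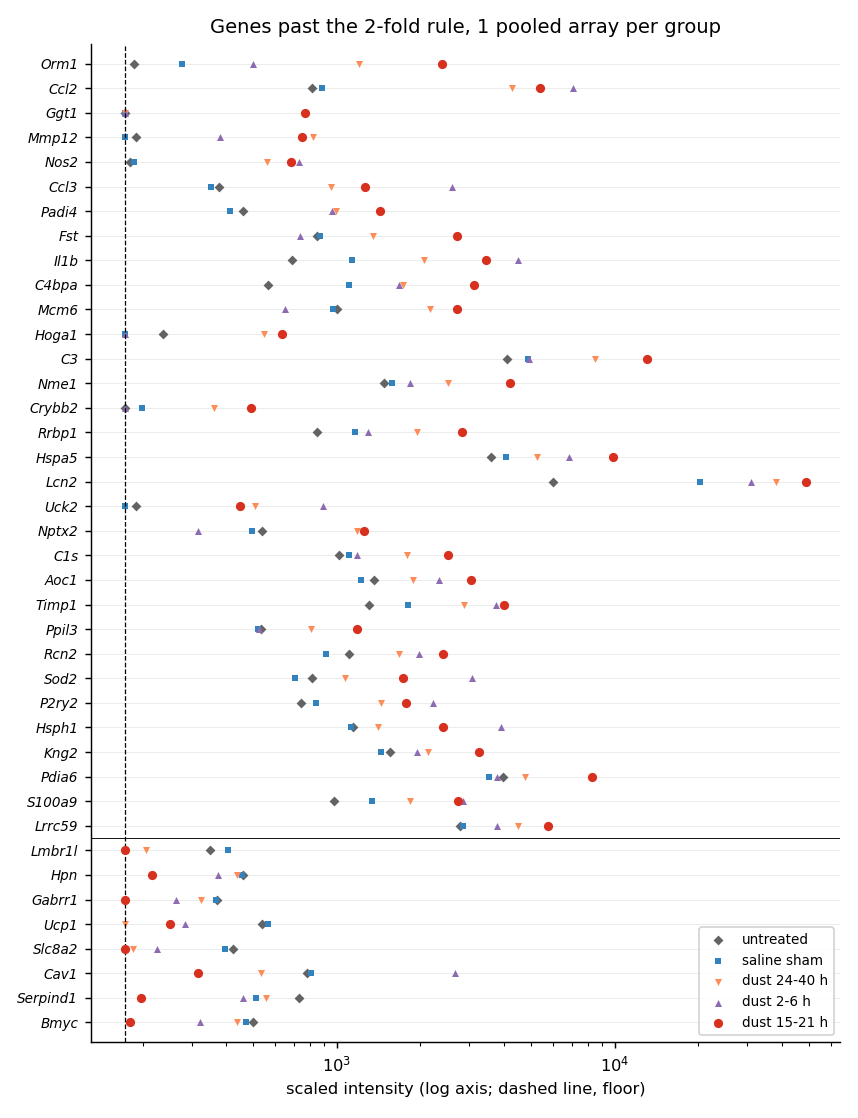
Scaled intensity (log axis) on the 5 arrays for the 32 genes above both controls (above the line) and the 8 below both (under the line), 1 symbol per pooled array, with the floor of 173 as a dashed line. Large red circles mark the 15 to 21 h array. They lie to the right of the sham and untreated symbols for all 32 genes and to the left for all 8.

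Acute phase plasma proteins held the gene furthest above the controls. Of 20 measured members, 3 passed the 2-fold rule upward (Orm1, Lcn2 and Kng2) and none downward; after quantile normalization 1 passed, Orm1. Orm1, which encodes alpha-1-acid glycoprotein, read 499, 2399 and 1201 at early, intermediate and late times, with 277 after saline and 187 in untreated lung. Both controls lay under all 3 exposed arrays, and the intermediate array was 8.65-fold above saline and 12.9-fold above untreated lung. Lcn2, lipocalin 2, which binds bacterial siderophores and is stored in neutrophil granules, read 30982, 49008 and 38177 on the exposed arrays, 20334 after saline and 5976 in untreated lung. Its sham level was itself far above the untreated level, so that the intermediate array was 8.20-fold above untreated but 2.41-fold above sham. Kng2, a kininogen, read 1941, 3248 and 2137, with 1439 after saline and 1552 in untreated lung. Ceruloplasmin (Cp), a copper-carrying ferroxidase, read 2613 on the intermediate array against 1084 and 1480, which is above 2-fold for the sham only. Haptoglobin (Hp), which binds free haemoglobin, read 3697 against 2202 and 2014. At the lower threshold of 1.5-fold, 5 members were above both controls, beside 4.89% of all genes measured. Of the 20 members, 11 were above both controls by any amount, beside 47.4% of all genes, and 4 were below both. Their median difference from both controls was 0.23 on the log2 scale, beside 0.10 for all genes measured. After quantile normalization 8 were above both controls and 4 below, with a median of 0.11. Members with small or opposite differences included Itih3 at 184 against 368 and 235, A2m at 638 against 774 and 1002, and Crp at 3457 against 2692 and 3284.

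Promoter sequences are shown for some of the genes past the rule and for members of the chaperone lists, because the transcription factors of inflammation and of chaperone induction recognise known short motifs. The sequences are from a RefSeq promoter table of the rat assembly GRCr8, which holds 250 bases before and 50 after each start, for 33469 starts of 27457 genes. A gene was counted where any of its windows held the motif on either strand. The motif TTGCNNAA, the core letters bound by C/EBP factors, which drive acute phase genes, lay in the window of 7 of the 25 higher genes with an entry (28%: C3, C4bpa, Il1b, Kng2, Lcn2, Mmp12 and Orm1), beside 11.4% of all genes in the table and 9.56% of the measured genes. Among the acute phase list 7 of 15 genes held it. The motif GGGAANNNCC, an NF-kB-like pattern, lay in 3 of the 25 (C3, Lcn2 and Orm1), 12%, beside 6.50% of all genes. Both patterns were chosen after the values were seen, and a match is a description of letters, not of binding. The stretches around the C/EBP-like match of Orm1 (chr5:81788361-81788418, plus strand), Lcn2 (chr3:36081939-36081996, minus strand) and C3 (chr9:2201411-2201468, minus strand) are given 5′ to 3′ on the gene's strand, with the match in capitals on whichever strand it lies.
Orm1: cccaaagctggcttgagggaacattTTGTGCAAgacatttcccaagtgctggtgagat
Lcn2: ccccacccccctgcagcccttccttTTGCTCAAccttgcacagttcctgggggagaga
C3: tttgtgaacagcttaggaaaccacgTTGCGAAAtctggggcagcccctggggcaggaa
The match lay 123 to 116 bases before the start of Orm1, 191 to 184 before that of Lcn2 and 104 to 97 before that of C3.

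Complement components were higher in 3 of 16 measured members and lower in none at 2-fold. By any amount 8 were above both controls and 2 below, beside 47.4% and 19.4% of all genes measured. Their median difference was 0.25, beside 0.10 for all genes. After quantile normalization 7 were above both and 3 below, the median was 0.15, and 2 passed 2-fold. C3, the central component cleaved by every complement pathway, read 4908, 13125 and 8473 at early, intermediate and late times, with 4893 after saline and 4081 in untreated lung. On this probe set the early value was level with the saline value, while the intermediate array was 2.68-fold above saline and 3.22-fold above untreated lung. C4bpa, the alpha chain of a soluble inhibitor of C4b, read 1675, 3111 and 1723, with 1104 after saline and 564 in untreated lung. C1s, a protease of the C1 complex, read 1185, 2505 and 1791, with 1107 and 1018. Its partner protease C1r read 3982 against 2277 and 2401, past 1.5-fold but not 2-fold. A second C3 probe set read 5539, 6955 and 4881 on the exposed arrays against 3062 and 2514 and also passed. Its early value was above both controls, so the early C3 level depended on the probe set. Adipsin (Cfd), the protease that starts the alternative pathway and a product of fat cells, read 605 against 943 and 1271, the only member at least 1.5-fold below both controls.

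Chemokines and cytokines were higher in 3 of 28 measured members and lower in none, beside 0.899% and 0.225% of all genes measured. By any amount 16 were above both controls and 3 below, beside 47.4% and 19.4% of all genes. Their median difference was 0.36, beside 0.10 for all genes, 0.56 on the early and 0.13 on the late array. After quantile normalization 16 were above both and 5 below, the median was 0.28, and 3 passed 2-fold. Ccl2, which attracts monocytes, read 7097, 5367 and 4277 with time after dust, 888 after saline and 812 in untreated lung. The exposed arrays did not overlap the controls, and the intermediate array was 6.05-fold above saline and 6.61-fold above untreated lung. Ccl3, a macrophage chemokine, read 2600, 1258 and 950 against 353 and 377. Interleukin-1 beta (Il1b), a pro-inflammatory cytokine, read 4479, 3451 and 2057, with 1131 after saline and 692 in untreated lung. For Ccl2 another probe set passed the rule as well, and for Il1b 2 others did. The neutrophil chemokine Cxcl2 read 1416 on the early array but 256 on the intermediate array, with both controls under the floor. Osteopontin (Spp1), a secreted adhesion protein, read 1244 against 660 and 463 and fell just short of 2-fold over the sham, at 1.88-fold. Lymphotactin (Xcl1) was under the floor on every array but the sham, where it read 779.

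Of 12 granulocyte markers named on the array, 6 were under the floor on the 3 arrays compared. Of the 6 measured, 3 passed the rule upward (Lcn2, Padi4 and S100a9). By any amount 5 were above both controls and 1 was below, beside 47.4% and 19.4% of all genes measured. The median difference was 1.12, the highest of the 46 lists. After quantile normalization Padi4 alone of the 6 passed, and the median was 0.97. Padi4, which citrullinates histones in neutrophils, read 957, 1432 and 990 on the exposed arrays against 413 and 458. S100a9, a calcium-binding protein abundant in neutrophil cytosol, read 2850, 2737 and 1841 against 1339 and 980, and its partner S100a8 read 2121, 1311 and 787 against 816 and 539. Fgr, a myeloid tyrosine kinase, was under the floor on the intermediate array against 377 and 294. The receptor Cxcr2 and the granule proteases Mmp8 and Mmp9 were under the floor on all 3 arrays. Cxcr1, a neutrophil chemokine receptor that was not on this list, read below both controls, at 330 against 1033 and 428. The list's summed intensity was 55097 on the intermediate, 23680 after saline and 8510 in untreated lung, mostly through Lcn2, which airway epithelium also makes. The part of recruited granulocytes in the acute phase and cytokine differences was not tested.

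Macrophage and monocyte markers were higher in 1 of 13 measured members, Mmp12. This protease, known as macrophage elastase, read 381, 749 and 822 at early, intermediate and late times, under the floor after saline and 190 in untreated lung. Its intermediate value was at least 4.34-fold above saline and 3.94-fold above untreated lung. Its inhibitor Timp1 read 3734, 3997 and 2880 against 1803 and 1301, and a second Timp1 probe set read 4161 against 1222 and 679. The low-affinity Fc receptor Fcgr2b read 963 against 367 and 564. Of the 13, 9 were above both controls, 3 of them at least 1.5-fold, and 1 was below both. Of all genes measured, 47.4% were above both, 4.89% at least 1.5-fold, and 19.4% were below both. Lysozyme (Lyz2) read 65142 against 52966 and 48269, and Cd74 read 36707 against 33261 and 32950. The member below both was Fabp4, at 519 against 902 and 1840, which is on the adipocyte list too. The list's median was 0.40, beside 0.15 on the early and 0.70 on the late array, and after quantile normalization it was 0.24. The remaining metalloproteinases and inhibitors, 12 of 14 measured, passed in neither direction.

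Inducible nitric oxide synthase (Nos2) was the only one of 23 measured genes of nitric oxide and vascular tone past the rule. It read 732, 682 and 559 on the exposed arrays, 186 after saline and 181 in untreated lung. This call depended on the probe set: 2 other Nos2 probe sets above the floor read 214 (under the floor on the sham, 251 on the untreated array) and 418 (under the floor and 226), and neither passed. Choosing the probe set by the control arrays alone took the first of these, whose log2 difference was 0.31 from the sham and -0.23 from the untreated array, so that it lay between the controls.

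ER chaperones and genes of the unfolded protein response were nearly all above the controls on the intermediate array. Of 22 measured members, 20 were above both controls and none was below both, beside 47.4% and 19.4% of all genes measured. Their median difference was 0.55, beside 0.10 for all genes, 0.29 on the early and 0.29 on the late array. Most steps were under 2-fold: 2 members (Hspa5 and Pdia6) passed the 2-fold rule and 8 the 1.5-fold rule. Pdia6 no longer passed 2-fold after quantile normalization or with values as deposited, while Hspa5 did. Of the members, 11 were in the brightest of 5 equal groups of genes, where the whole array was shifted upward, as described further on. After quantile normalization 19 of 22 were still above both controls with a median of 0.41, beside 35.2% of all genes and a median of -0.00, but 2 rather than 8 reached 1.5-fold.

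Hspa5, the chief ER chaperone, also called BiP, read 6876, 9826 and 5240 at early, intermediate and late times, with 4076 after saline and 3594 in untreated lung. The intermediate array was 2.41-fold above saline and 2.73-fold above untreated lung, and a second probe set read 6518 against 2434 and 2449. Pdia6, a protein disulphide isomerase, read 3758, 8290 and 4746 against 3539 and 3970, so that the early array lay between the controls. Hsp90b1, the ER form of HSP90, read 11729 against 6724 and 5752. The disulphide isomerases P4hb (17616 against 10033 and 9421), Pdia3 (7243 against 3505 and 4499) and Pdia4 (1488 against 837 and 962) were also at least 1.5-fold above both. Calreticulin (Calr), a calcium-binding chaperone of glycoproteins, read 18626 against 12108 and 9779, and its membrane partner calnexin (Canx) read 13481 against 8149 and 9121. Among translocon and signal sequence genes, Sec61b read 6008 against 3846 and 3893, and Ssr4 read 5445 against 3593 and 3732. Ddit3, the CHOP transcription factor, read 720 against 475 and 540, and Dnajb9, an ER co-chaperone, read 676 against 496 and 518, both lower than on the early array. Sec61a1, at 261 against 220 and 420, lay between the controls.

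**Figure D3:**
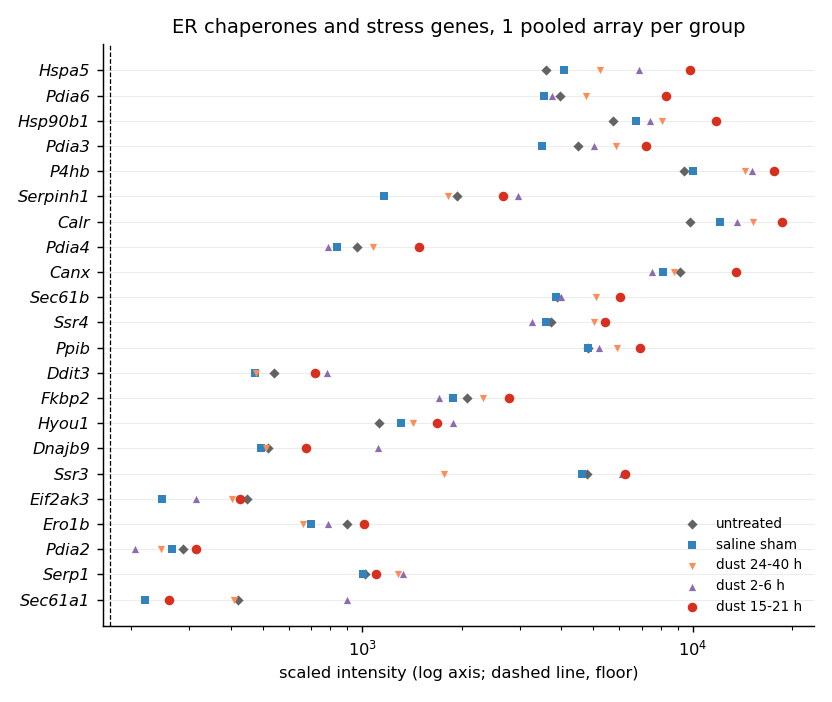
Scaled intensity (log axis) of the 22 measured ER chaperone and unfolded protein response genes on the 5 arrays, ordered by the difference of the 15 to 21 h array from both controls, 1 symbol per pooled array. The red circles of the 15 to 21 h array lie to the right of both control symbols for 20 genes; Eif2ak3 and Sec61a1 are the exceptions.

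Other genes of the rough ER stood among the 32 as well. Rrbp1, a ribosome-binding protein of the ER membrane, read 1290, 2813 and 1938 against 1166 and 847. Lrrc59, also a ribosome-associated ER membrane protein, read 3763, 5757 and 4480 against 2854 and 2773 and passed narrowly, at 2.02-fold and 2.08-fold. Rcn2, a calcium-binding protein of the ER lumen, read 1984, 2420 and 1679 against 916 and 1104. These 3 genes were on none of the lists and are grouped here after their values were seen. For Lrrc59 a second probe set read 1278 against 844 and 864 and did not pass.

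The ER stress element, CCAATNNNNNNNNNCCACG, is the site through which ATF6 and NF-Y raise ER chaperones. It lay in the window of 21 of 27457 genes (0.0765%), of 6 of the 2928 measured genes with an entry (0.205%) and of 5 of the 19 ER list genes with an entry (26.3%: Calr, Canx, Ero1b, Hsp90b1 and Hspa5). Among the ER genes at least 1.5-fold above both controls it lay in 3 of 6. Since this element was defined on ER chaperone promoters, its presence there describes the genes and supports nothing about these samples. A shorter related element, ATTGGNCCACG, added after the values were seen, lay in 1 of the 19 (Hyou1) and in 0.0619% of all genes. Windows are shown for Hspa5 (chr3:38452948-38453015, plus strand), Hsp90b1 (chr7:23012322-23012494, minus strand), Calr (chr19:40213117-40213178, plus strand) and Canx (chr10:35158044-35158107, minus strand), with the element in capitals on whichever strand it lies.
Hspa5: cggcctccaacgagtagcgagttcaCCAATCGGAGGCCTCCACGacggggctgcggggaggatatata
Hsp90b1: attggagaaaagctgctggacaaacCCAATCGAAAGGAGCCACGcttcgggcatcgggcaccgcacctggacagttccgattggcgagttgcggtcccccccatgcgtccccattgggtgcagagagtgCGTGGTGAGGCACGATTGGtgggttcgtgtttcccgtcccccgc
Calr: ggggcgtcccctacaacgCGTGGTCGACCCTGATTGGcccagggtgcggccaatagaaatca
Canx: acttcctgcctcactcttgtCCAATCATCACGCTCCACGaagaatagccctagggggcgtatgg
The element lay 43 to 25 bases before the start of Hspa5, and Hsp90b1 held 2, one on each strand, at 176 to 158 and 72 to 54 bases before its start.

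Cytosolic and mitochondrial heat shock proteins were above both controls in 15 of 19 measured members, beside 47.4% of all genes measured. Their median was 0.34 (0.22 after quantile normalization), and 1 passed the 2-fold rule. After quantile normalization 11 of the 19 were above both controls, beside 35.2% of all genes, and 0 passed. The 1 that passed, Hsph1, the HSP110 chaperone that works with HSP70, read 3905, 2404 and 1409 at early, intermediate and late times against 1121 and 1139. Its call was lost with values as deposited, 75th percentile, quantile or lowess scaling, the median of probe sets, and without probe sets from expressed sequence tags. Hspd1, the mitochondrial HSP60 chaperonin, read 5912, 9903 and 6874 against 5131 and 4910 and fell just short of the rule, at 1.93-fold over the sham and 2.02-fold over the untreated array. Its co-chaperonin Hspe1 read 7322 against 4110 and 4604. The inducible HSP70 gene Hspa1a, at 11637 on the early array, had come down to 788 on the intermediate array, against 615 and 327. The small heat shock proteins Hspb6 (677 against 834 and 702) and Hspb2 (498 against 655 and 605) were below both controls.

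The heat shock element GAANNTTCNNGAA holds the letters bound by heat shock factor trimers. It lay in the window of 218 of 27457 genes (0.794%) and of 18 of the 2928 measured genes with an entry (0.615%). Of the 14 heat shock list genes with an entry, 4 held it (28.6%: Dnaja1, Hspd1, Hspe1 and Hsph1). Hsph1 was the only one of the 25 higher genes with an entry to hold it. Since this element was defined on heat shock gene promoters, its presence in the list describes the genes and supports nothing about these samples. The stretches shown are those of Hsph1 (chr12:10427307-10427367, plus strand) and of Hspe1 (chr9:64084237-64084304, plus strand), with the matches in capitals. The Hspe1 stretch holds 2 overlapping matches and lies between Hspe1 and Hspd1, which are transcribed from it in opposite directions.
Hsph1: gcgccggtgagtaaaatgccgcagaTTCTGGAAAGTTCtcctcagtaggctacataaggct
Hspe1: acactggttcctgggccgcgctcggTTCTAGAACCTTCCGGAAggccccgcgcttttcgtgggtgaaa

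Of 25 measured proteasome and ubiquitin genes, 24 were above both controls, beside 47.4% of all genes measured. None passed 2-fold and 2 passed 1.5-fold, with a median of 0.38 and a range of -0.10 to 0.91. Of the 25, 16 were in the brightest of 5 equal groups, where 72.2% of all genes were above both controls. After quantile normalization the list median was 0.19, with 19 of 25 above both controls, beside 35.2% of all genes. Psmb4 read 27328 against 18207 and 16697, and Psme2, a subunit of the PA28 activator, read 1409 against 709 and 792. Genes of the amino acid stress response and tRNA synthetases had a median of 0.51, beside 0.75 on the early and 0.05 on the late array. None of 11 passed 2-fold and 3 passed 1.5-fold, beside 0.899% and 4.89% of all genes. By any amount 7 were above both controls and 3 below. The median was 0.45 after quantile normalization, where 1 passed 1.5-fold, 0.18 as deposited and 0.22 with 75th percentile scaling. Tars1 read 2331 against 1448 and 1365, and the amino acid transporter Slc7a5 read 1320 against 820 and 775. Atf3, an early stress factor that read 3209 on the early array, was level with the controls at 755 against 878 and 788.

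Antioxidant and glutathione enzymes split. Of 36 measured, 2 passed the rule upward and none downward. By any amount 18 were above and 9 below both controls, beside 47.4% and 19.4% of all genes. The median of 0.10 equalled that of all genes and became -0.03 after quantile normalization. Sod2, the manganese superoxide dismutase of mitochondria, read 3065, 1734 and 1070 on the exposed arrays against 704 and 815. Ggt1, which cleaves extracellular glutathione, read 766 on the intermediate array and was under the floor on the other 4, so its fold was at least 4.44 over each control, from 1 array. Nqo1, a quinone reductase induced by oxidants, read 5872, 4041 and 2771 against 2058 and 1989, and missed the rule at 1.96-fold over the sham. Haem oxygenase 1 (Hmox1) read 15565, 7293 and 4583, with 4745 after saline and 1700 in untreated lung, and thus stood 4.29-fold above untreated but 1.54-fold above sham. Extracellular superoxide dismutase (Sod3) went the other way, at 736 against 1271 and 1722. Among 11 metal and iron handling genes none passed 2-fold, and the iron transporter Slc11a2 read 2727 against 2230 and 1347. Of 22 xenobiotic metabolism genes none passed 2-fold and 1 was at least 1.5-fold lower, with a median of -0.04; Cyp2b2 read 26481 against 21779 and 20204.

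DNA replication and mitosis genes were mixed at these times, with 1 of 33 past 2-fold and 5 past 1.5-fold, beside 0.899% and 4.89% of all genes measured. By any amount 17 were above both controls and 4 below, beside 47.4% and 19.4% of all genes. The median was 0.16, beside 0.10 for all genes, -0.12 on the early and 0.30 on the late array. After quantile normalization the median was 0.13 and 3 passed 1.5-fold. Mcm6, a subunit of the replicative helicase, read 653, 2716 and 2170 at early, intermediate and late times against 971 and 1003. The early array was the lowest of the 5. Other Mcm6 probe sets read 1873 against 948 and 912, and 590 against 268 and 454, higher than both controls without passing the rule. Pcna, the sliding clamp of DNA polymerase, read 5326 against 2978 and 3130, Mcm5 read 526 against 308 and 306, and topoisomerase Top2a read 1420 against 824 and 860. The mitotic kinase Cdk1 read 377 against 360 and 278, while its late value was 646, and Plk1 lay between the controls. Nme1, a nucleoside diphosphate kinase, read 1833, 4194 and 2519 against 1580 and 1476, and Uck2, which phosphorylates uridine and cytidine, read 891, 446 and 509, under the floor after saline and 189 in untreated lung.

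Among metabolic lists none had a member past 2-fold. Of all genes measured, 47.4% were above both controls and 19.4% below. Glycolysis and hypoxia enzymes had 4 of 24 members at least 1.5-fold above both controls, which was 1 after quantile normalization. By any amount 8 were above both controls and 7 below, with a median of 0.15 that became -0.0004. Among the 4, Pgk1 read 15769 against 8038 and 8747, Pkm 15965 against 10042 and 8984, and Eno1 17909 against 11599 and 11596. Sterol synthesis genes had a median of 0.33 (0.25 after quantile normalization), with 13 of 21 above both controls and Msmo1 at 3682 against 2402 and 2420. Respiratory chain genes (36, median 0.25), cytosolic ribosomal proteins (35, 31 of them above both controls, median 0.31), lysosomal genes (22, median 0.29) and fatty acid genes (30, median 0.07) lost most or all of that step after quantile normalization, with medians of 0.04, 0.05, 0.08 and -0.09. The 13 reference genes did the same: 11 were above both controls, with a median of 0.32 that became 0.05, and Actb read 45841 against 38727 and 36863.

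This followed a trend with brightness on the intermediate array. When the 3561 genes were ranked by their mean intensity over the 5 arrays and divided into 5 equal groups, the median difference from both controls rose from -0.06 in the dimmest group through 0.01, 0.10 and 0.18 to 0.25 in the brightest, and the share of genes above both controls rose from 28.3% to 72.2%. After quantile normalization the medians ran from -0.05 to 0.03. The higher calls were spread as 1, 5, 5, 14 and 7 over the groups, and the lower calls as 1, 6, 1, 0 and 0. The medians of lists rich in bright genes, such as ribosomal, proteasome and reference genes, move with this shift, and its cause was not tested.

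**Figure D4:**
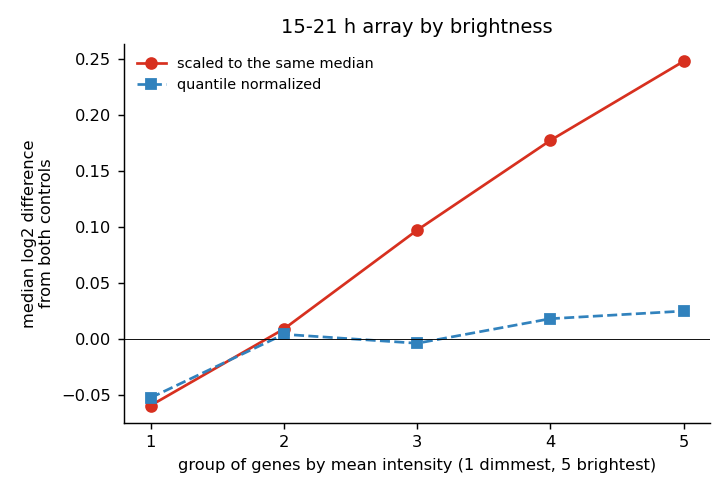
Median log2 difference of the 15 to 21 h array from both controls (y axis) in 5 equal groups of the 3561 measured genes by mean intensity (x axis, 1 the dimmest), for arrays scaled to the same median (circles) and quantile normalized (squares). The circles climb from -0.06 to 0.25 while the squares stay between -0.05 and 0.03.

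The remaining higher genes belonged to no common list. Follistatin (Fst), which binds and blocks activin, read 735, 2710 and 1347 at early, intermediate and late times against 871 and 845, and a second probe set read 2763 against 974 and 869. It was the only one of 27 genes of TGF-beta, activin and BMP past the rule; the activin subunit Inhba read 318, between 515 after saline and an untreated value under the floor. Aoc1, the diamine oxidase that degrades histamine, read 2326, 3052 and 1887 against 1217 and 1364. P2ry2, a receptor for extracellular ATP and UTP, read 2221, 1779 and 1446 against 841 and 744. Nptx2, a neuronal pentraxin related to the acute phase pentraxins, read 315, 1249 and 1180 against 495 and 538, while its other probe set read 174 against 223 and under the floor. Hoga1, a mitochondrial aldolase, read 635 and 545 on the intermediate and late arrays, under the floor on the early and sham arrays and 236 on the untreated array. Ppil3, a cyclophilin-type isomerase, read 525, 1178 and 807 against 519 and 533, with a second probe set that did not pass. Crybb2, a crystallin of the lens, read 491 against 198 after saline and under the floor in untreated lung, but its other measured probe set read 195 against 275 and 238, which stood for the gene with the floor at the 20th percentile or with the probe set chosen by the controls.

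For 12 of the 32 genes other probe sets were above the floor, 16 in all. Of these 7, for 6 genes (C3, Ccl2, Fst, Hspa5, Il1b and Timp1), passed the rule too, and 12, for 9 genes, were above both controls. Called under every alternative scaling, floor and probe set choice that kept both controls and 2-fold, leaving aside the setting without probe sets from expressed sequence tags, were 12 of the 32: Aoc1, C3, C4bpa, Ccl2, Ccl3, Fst, Hspa5, Il1b, Nme1, Orm1, Padi4 and Rrbp1. Just outside the rule, beside Nqo1, Hspd1 and Spp1, lay the acidic chitinase Chia (12271 against 6249 and 4170, 1.96-fold over the sham) and the alpha-tubulin Tuba4a (2065 against 1050 and 802).

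The 8 lower genes were dim, and 0 of them were called under every such alternative, because none passed with the floor at the 60th percentile. Caveolin 1 (Cav1), the coat protein of caveolae in endothelium and alveolar type 1 cells, read 2655, 317 and 535 at early, intermediate and late times, with 808 after saline and 783 in untreated lung. It was 2.55-fold lower than the sham on the intermediate array and 3.28-fold higher than the sham on the early array. Serpind1, heparin cofactor II, which inhibits thrombin, read 458, 198 and 556 against 513 and 729, the only one of 18 coagulation genes past the rule. Ucp1, the uncoupling protein of brown fat, read 283 and 251 on the early and intermediate arrays, under the floor on the late array, and 566 and 537 on the controls, while a second probe set read 212 against 448 and 360. Bmyc, a Myc family member, read 321, 180 and 436 against 472 and 499. Slc8a2, a sodium-calcium exchanger, and Gabrr1, a GABA receptor subunit, were under the floor on the intermediate array, against 394 and 422 and against 366 and 372. Hpn, a membrane serine protease, read 216 against 455 and 458, and Lmbr1l was under the floor against 404 and 349. At 1.5-fold, 58 genes (1.63%) were below both controls.

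Adipocyte markers had the lowest median of the lists, -0.65 (-0.64 after quantile normalization), with 1 of 11 past 2-fold and 4 at least 1.5-fold below both controls. By any amount 7 were below both and 3 above, beside 19.4% and 47.4% of all genes measured. Of the 3 above, Adrb3 read 445 against 244 and 412, Lipe 1954 against 1636 and 1682, and Lpl 4535 against 4241 and 4041. Beside Ucp1, the fatty acid binding protein Fabp4 read 519 against 902 and 1840, the brown fat subunit Cox8b read 910 against 1310 and 2634, less than 1.5-fold below the sham, and adipsin, given above, also belongs here. Both controls differed between themselves for Fabp4 and Cox8b, and the early and late medians were -0.50 and -0.58. Lymphocyte markers were below both controls in 9 of 16 measured members and above in 1, beside the same 19.4% and 47.4%. Their median was -0.25 with none past 2-fold. Ptprc, which other leukocytes express too, read 742 against 885 and 1275. The 1 member above both was Lck, at 1882 against 1461 and 1765. Cardiac muscle markers, expressed in the pulmonary veins of rodents, had a median of -0.18, beside -0.86 on the early and -1.27 on the late array. The intermediate median was 0.07 from the sham and -0.52 from the untreated array, so the controls differed in direction. Of 19 measured, 4 were below both controls and 1 above, and Myl7 read 12018 against 10462 and 17266. Erythroid and platelet genes had a median of -0.27, with Hbb at 4017, 9118 after saline and 3544 in untreated lung.

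Among resident lung cells, alveolar type 2 markers had none of 9 past 2-fold and a median of 0.43, which was 0.10 after quantile normalization. Sftpa1 read 47303 against 37704 and 32178, and Sftpb 35343 against 35879 and 33067. Alveolar type 1 markers, 7 in all, had Cav1 past the rule and a median of -0.18, with 4 below both controls and 0 above. Of all genes measured, 19.4% were below both and 47.4% above. After quantile normalization all 7 type 1 markers were below both, with a median of -0.37. On median scaling 3 defining genes lay between both controls: Ager read 26320 against 28269 and 25949, Pdpn 7008 against 7335 and 6577, and Aqp5 5566 against 5300 and 6160. Airway markers (6, median -0.14) had none past 2-fold, with 4 below both controls and 0 above; after quantile normalization 5 of the 6 were below both and the median was -0.41. The club cell cytochrome Cyp2f4 read 605 against 940 after saline and 2643 in untreated lung. Endothelial markers (12, median -0.03) had none past 2-fold, with 4 above both controls and 2 below. After quantile normalization 3 were above both and 3 below. The 2 below on median scaling were Kdr, at 1503 against 1741 and 2219, and the lymphatic receptor Lyve1. Lyve1 read 572 against 1123 and 1363, just short of the rule at 1.96-fold below the sham. Fibroblast (16), smooth muscle (11), skeletal muscle (11) and mast cell (7) markers had none past 2-fold, with medians of 0.05, 0.22, 0.03 and -0.05. After quantile normalization these medians were -0.14, -0.0009, 0.04 and -0.08, and 10 of the 16 fibroblast markers were below both controls. Acta2 of smooth muscle read 14262 against 10115 and 10170, and Mcpt1l1 of mast cells read 2389 against 2244 and 2115.

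The immediate early, JAK-STAT and NF-kB, and interferon lists had medians near the all-gene median of 0.10 at 15 to 21 h. Immediate early genes had none of 29 past 2-fold and a median of 0.05, beside 0.47 on the early array; Egr1 read 9250 against 7805 and 10222. JAK-STAT and NF-kB genes had none of 21 past 2-fold and a median of 0.11, beside 0.37 early, with Nfkbia at 4503 against 3279 and 2552. Interferon response and antigen presentation genes (21, median 0.08, turning to -0.13 after quantile normalization) also had none past 2-fold, with B2m at 30860 against 26174 and 25022. None passed 2-fold among glucocorticoid and hormone genes (15, median 0.11, turning to -0.08) or matrix proteins (32, median 0.00). Nor did any among growth factors (29, median -0.10), prostaglandin and leukotriene genes (24, median -0.14) or clock genes (9, median -0.09). The last 3 medians lay under the all-gene median. In these lists 8, 9 and 4 genes were below both controls and 7, 6 and 1 above, beside 19.4% and 47.4% of all genes measured. Vegfa read 1589 against 1962 and 2810, Col1a1 11247 against 11040 and 15045, and the clock repressor Nr1d1 800 against 1074 and 1283. Caveolar and junction genes (12, median 0.06, turning to -0.11) and neuronal receptors and channels (29, median -0.10) each had 1 lower gene, Cav1 and Gabrr1.

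**Figure D5:**
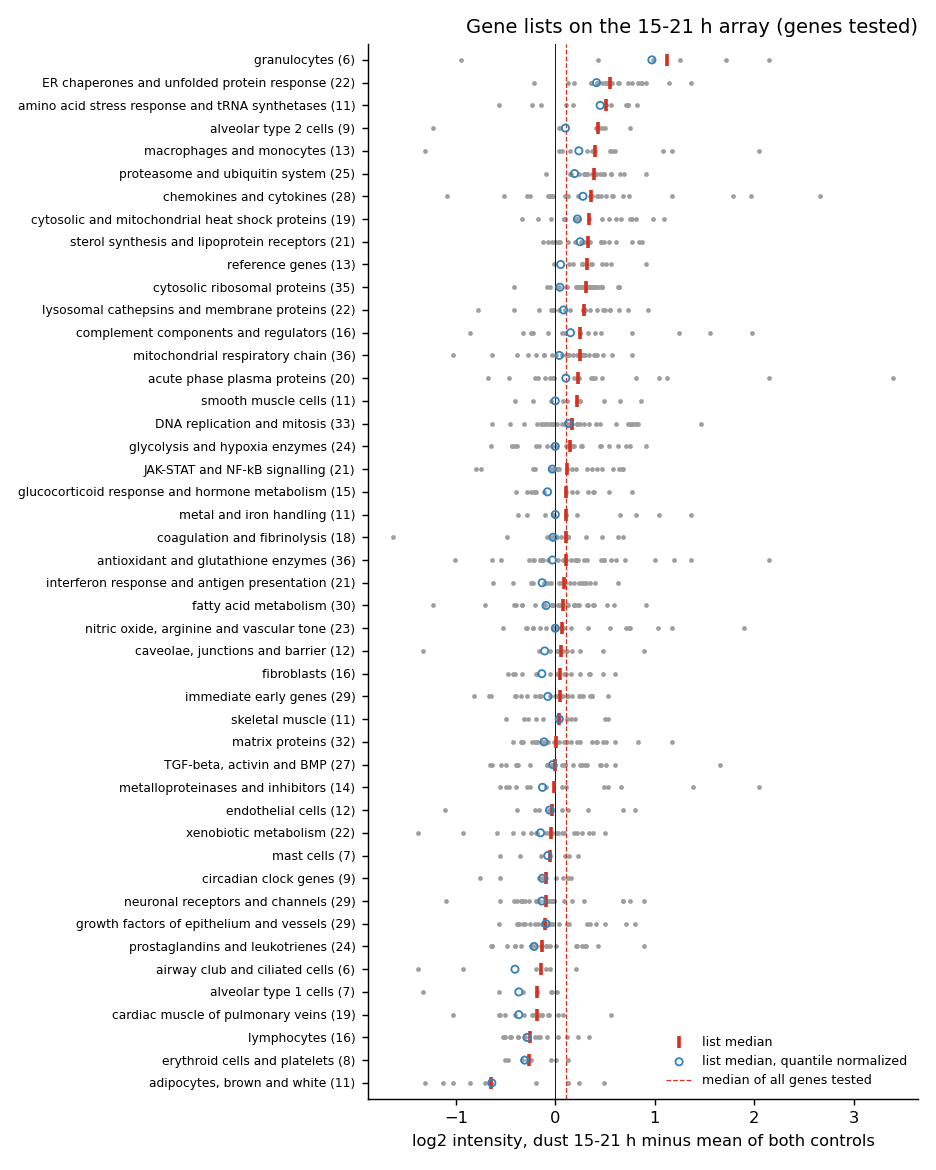
Log2 difference of the 15 to 21 h array from the mean of both controls (x axis) for the measured members of 46 gene lists (rows, number measured in brackets), with grey points for genes, red bars for list medians, blue circles for medians after quantile normalization and a dashed line at the median of all genes, 0.10. Granulocyte markers (1.12) and ER genes (0.55) stand at the top and adipocyte markers (-0.65) at the bottom.

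The 2 controls did not always agree, and more genes differed from 1 control than from both. At least 2-fold above the sham only were 55 genes, led by the transcription factor Casz1 (849, against under the floor after saline and 732 in untreated lung), Gamt, Lad1, Gon7 and Gstk1, and 51 genes were at least 2-fold below the sham only, led by Xcl1, Adra1d, Gata4, Grk1 and Cxcr1. Cxcr1, a neutrophil chemokine receptor, read 330 against 1033 after saline and 428 in untreated lung. At least 2-fold above the untreated array only were 56 genes, led by Hmox1, Akap11, C2cd4b, LOC102547700 and Rasl11b. C2cd4b read 2460, 720 and 574 at early, intermediate and late times, 700 after saline and under the floor in untreated lung. At least 2-fold below the untreated array only were 26 genes, led by Cyp2f4, Arhgap39, Fabp4, Rbp4 and Scd. Scd, a fatty acid desaturase, read 3930 against 7288 after saline and 11588 in untreated lung, and Rbp4, the retinol carrier, read 535 against 615 and 1638.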

How the data were processed

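The series' value table holds 1 linear intensity per probe set and array, as deposited; the algorithm, software and genome build behind it were not given in the sources used here. That the submitters brought the arrays to a common level is read from the values, whose 2%-trimmed means were all between 1001 and 1002. Detection calls were not used here, and the precision is limited by 1 array per group.

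From the deposited intensity, the 8740 probe sets that are not controls were scaled to the same median (factors 0.931 to 1.07), given a floor (the 40th percentile over the 5 scaled arrays) and log2 transformed. A platform annotation table gave 7006 probe sets 1 symbol, 308 several and 1426 none; 6985 were found in RefSeq (GRCr8), which changed no symbol. A gene was read by its probe set with the highest mean over the 5 arrays, a choice the exposed arrays enter. Of the named genes, 1565 had several probe sets, and 1175 were under the floor on the 3 arrays compared. No statistical test between groups was run.

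The members, the 46 gene lists, the fold rule and the rule for named genes were chosen with earlier results of these data known. That rule took the 25 highest and 15 lowest genes, up to 6 past the threshold per list or the 3 brightest where none passed, and the 5 leading genes each way for 1 control only. Other genes are named after their values were seen, as are the 3 motifs other than the ER stress and heat shock elements. Alternatives were scaling, floor, fold, probe set choice, control and probe sets from expressed sequence tags. The code for the fold rule was checked on simulated arrays with known folds. Python 3.11.15, numpy 2.4.6, pandas 2.3.3, statsmodels 0.14.6 and matplotlib 3.10.9 were used.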

Additional observations from a re-analysis of the deposited data

Results flagged for a closer look

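Cav1, the caveolin of caveolae, read above both controls on the early array and below both on the intermediate array. The intermediate array was 2.55-fold lower than the sham array and the early array was 3.28-fold higher than it, and the late array (535) also lay under both controls (808 and 783). Each time is 1 pooled array read by 1 Cav1 probe set, and the difference between them was not tested. The early array had the highest beta-actin 5′ to 3′ ratio of the 5 arrays (43.1%) and the intermediate array the lowest (9.07%). The part of that gap in the Cav1 difference was not tested either.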

How the results depend on the processing

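The 32 higher and 8 lower genes became 21 and 14 with values as deposited, 25 and 13 with scaling to the 75th percentile, 103 and 60 with the floor at the 20th percentile, 26 and 0 with the floor at the 60th, 174 and 58 at 1.5-fold and 9 and 0 at 3-fold. They were 87 and 59 with the sham as the only control, and 88 and 34 with the untreated array as the only control. The counts stayed within 1.5 times under quantile normalization (23 and 11), brightness-dependent lowess centring, chosen after seeing the data (23 and 11), the probe set picked by the control arrays (30 and 9), the median of probe sets (25 and 7) and without probe sets from expressed sequence tags (22 and 8). Higher genes made up 60% to 67.6% of calls as deposited, with 75th percentile scaling (65.8%) and under quantile or lowess, against 80%. For single called genes the value compared is the smaller of both differences. Crybb2 reversed with the floor at the 20th percentile or the probe set picked by controls (-0.49), where another probe set, below both controls, stands for the gene. From 1 control only, the sign turned for Crybb2 with the median of probe sets (-0.025, from the sham) and for Nos2 with the probe set picked by controls (-0.23, from the untreated array; 0.31 from the sham). The sign turned for no other called gene. No paired analysis was possible because each group is 1 array. With 1 array per group, no difference has an error, and signal near the floor limits the lower genes.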
